A study of Mus musculus with 118 samples.

Results

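Within the domains called for Polycomb repressive complex 2 (PRC2) in mouse embryonic stem cells (ESCs), peaks of PCGF2 took up a shorter stretch, usually near the centre. PCGF2 is a core subunit of canonical PRC1 (cPRC1) in these cells. To examine how far the cPRC1 subunit PCGF2 extends within sites of the PRC2 subunit SUZ12, every SUZ12 peak that shared at least 1 bp with a PCGF2 peak was taken. Of 7438 SUZ12 peaks, 3569 met this rule, which is 48.0% of the list, and these shared domains are described here. They were met by 3638 of 3680 PCGF2 peaks, and the remaining 42 PCGF2 peaks touched no SUZ12 peak. Because the domains were selected on the overlap of these peak lists, the overlap itself is a description and carries no test.

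The series holds 118 calibrated ChIP-seq samples in 42 groups, and the peak lists used here were called in untreated cells. PCGF2 peaks came from 3 untreated samples of PRC1CPM ESCs, an E14-derived line grown as clone 41. Its Ring1a alleles carry the mutations I50A/D53K, its floxed Ring1b alleles switch from wild type to I53A/D56K on recombination, and Rosa26::ERT2-Cre supplies the recombinase. SUZ12 peaks came from 3 untreated samples of that line and 3 untreated samples of PRC1CKO ESCs (Ring1a-/-; Ring1bfl/fl; Rosa26::ERT2-Cre, also E14, clone B9). In PRC1CPM the tamoxifen derivative OHT replaces RING1B by a catalytically inactive form, and in PRC1CKO it removes RING1B. Both lines therefore already lack active RING1A without OHT, mutant in one and deleted in the other, and each line is a single clone. A further list holds RING1B peaks found in both untreated lines, kept only where RING1B fell significantly after OHT in PRC1CKO. The paper took its RING1B data for PRC1CKO from an earlier study. The lists give the start and end of each peak and no height or replicate, so no value per sample and no spread between cultures can be given. Intervals below are 95% intervals (Wilson for shares, order statistics for medians) and cover counting error only.

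PRC2 methylates histone H3 on lysine 27 and SUZ12 is one of its core subunits. PRC1 ubiquitylates a neighbouring histone through RING1A or RING1B. Its canonical forms assemble around PCGF2 or PCGF4 and hold a CBX subunit that reads the PRC2 mark. Variant forms lack CBX and can also use PCGF2, so a PCGF2 peak is not canonical PRC1 by definition. In ESCs both complexes sit at CpG islands of silent developmental genes. A CpG island is a stretch of DNA, often around a transcription start site (TSS), that has kept its CpG dinucleotides.

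Short stretches of wide shared domains are shown as examples of the DNA under PCGF2 and under SUZ12 alone, whose CpG content over all domains is given further on. Windows of 150 bp were read from GRCm38.p6, the assembly of mm10, on the + strand, at the middle of the part of the widest PCGF2 peak that lies inside the domain and at the middle of the longer flank that PCGF2 left uncovered. CpG dinucleotides are in capitals. In the Hoxb domain, which holds clustered homeobox genes of the body axis, the windows were chr11:96312309-96312458 and chr11:96376204-96376353, both intergenic. In the Hoxc domain they were chr15:102980362-102980511, in an intron of Hoxc9, and chr15:102907855-102908004, intergenic. In the domain of Nr2f2, a nuclear receptor gene, they were chr7:70347836-70347985, intergenic, and chr7:70373026-70373175, in an intron of the non-coding gene B130024G19Rik. In the domain of Hand2, a bHLH transcription factor gene of heart and limb, they were chr8:57330186-57330335 and chr8:57354571-57354720, both intergenic.
Hoxb under PCGF2: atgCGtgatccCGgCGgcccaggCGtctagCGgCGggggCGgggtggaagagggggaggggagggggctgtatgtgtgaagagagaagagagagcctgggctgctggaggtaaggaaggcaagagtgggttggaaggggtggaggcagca
Hoxb under SUZ12 only: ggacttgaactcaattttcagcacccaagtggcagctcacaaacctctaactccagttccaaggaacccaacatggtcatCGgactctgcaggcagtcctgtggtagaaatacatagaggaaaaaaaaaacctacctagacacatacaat
Hoxc under PCGF2: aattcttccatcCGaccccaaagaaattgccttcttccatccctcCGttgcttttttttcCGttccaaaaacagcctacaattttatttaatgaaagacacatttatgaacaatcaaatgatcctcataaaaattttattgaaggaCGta
Hoxc under SUZ12 only: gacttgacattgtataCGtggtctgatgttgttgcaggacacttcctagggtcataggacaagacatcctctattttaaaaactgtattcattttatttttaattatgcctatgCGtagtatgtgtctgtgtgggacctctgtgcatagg
Nr2f2 under PCGF2: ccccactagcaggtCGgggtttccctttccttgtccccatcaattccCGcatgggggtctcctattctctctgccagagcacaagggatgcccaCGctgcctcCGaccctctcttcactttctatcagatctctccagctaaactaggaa
Nr2f2 under SUZ12 only: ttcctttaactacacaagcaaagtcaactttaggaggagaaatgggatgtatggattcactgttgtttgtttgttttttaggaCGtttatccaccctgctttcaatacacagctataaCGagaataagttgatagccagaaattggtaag
Hand2 under PCGF2: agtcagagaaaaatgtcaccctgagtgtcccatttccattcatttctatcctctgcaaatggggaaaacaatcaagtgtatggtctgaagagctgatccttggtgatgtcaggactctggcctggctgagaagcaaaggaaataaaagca
Hand2 under SUZ12 only: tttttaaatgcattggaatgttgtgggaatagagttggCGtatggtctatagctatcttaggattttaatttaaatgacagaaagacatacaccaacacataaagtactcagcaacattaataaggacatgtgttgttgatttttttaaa
The Hoxb windows held 7 CpGs under PCGF2 and 1 outside it, the Hoxc and Nr2f2 windows 4 and 2 each. GC content did not follow in every pair, and was 34.0% under PCGF2 and 39.3% outside it for Hoxc. The Hand2 pair went the other way, with 0 CpGs under PCGF2 and 1 outside, although over the whole Hand2 domain the ratio of observed to expected CpGs was 0.404 in the covered part and 0.164 in the rest. The expected number of CpGs in a stretch was its C count multiplied by its G count, over its length.

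PCGF2 usually formed 1 continuous block inside a SUZ12 domain. Of the 3569 domains, 3482 (97.6%, 97.0 to 98.0) held exactly 1 PCGF2 peak, 72 held 2, 13 held 3, 1 held 4 and 1 held 5. The block covered a median of 56.4% of the SUZ12 base pairs (55.7 to 57.1), with 25th and 75th percentiles of 43.3% and 72.2%. In base pairs, the median SUZ12 domain was 4971 bp wide and the median covered length was 2550 bp. Summed over all domains, PCGF2 covered 14.0 Mb of 22.5 Mb, or 62.0%. A share under 25% was found in 135 domains, a share of 90% or more in 268, and complete cover in 71, whose median width was 1896 bp.

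PCGF2 lay inside SUZ12 far more often than the reverse. Of the PCGF2 peaks, 3138 (86.3%, 85.1 to 87.3) fell wholly within 1 SUZ12 peak, and 98.5% of the base pairs of these 3638 peaks were under SUZ12. All PCGF2 peaks of a domain stayed inside it in 3035 domains, whereas PCGF2 passed exactly 1 edge in 461 and both edges in 73. The median distance from a SUZ12 edge inwards to the PCGF2 edge, here called the offset, was 1042 bp (1014 to 1069) over 7138 edges. How the edges of the lists were set is not stated in the sources used here, and the lists were built by different rules, so an offset and a difference in calling cannot be told apart. The left and right edges were alike, with medians of 1050 and 1037 bp, and the right offset was the longer in 49.9% of domains. The 607 edges that PCGF2 passed were mostly passed by little, with a median of 191 bp.

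The position of the block was close to central. Among domains with a single PCGF2 peak, the midpoints of the 2 peaks were a median of 328 bp apart, or 6.53% of the SUZ12 width. PCGF2 lay over the SUZ12 midpoint in 3291 domains (92.2%, 91.3 to 93.0). A single block that covers more than 50% of a domain must hold its midpoint, and 2238 domains (62.7%) had a share of 50% or more. How far the central position follows from the covered share was not tested, and no baseline was set for it. The shorter of the 2 offsets of a domain had a median of 632 bp and the longer 1419 bp.

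The covered share was high at both ends of the width range and lower between them. Domains were ranked by SUZ12 width and cut into 10 classes of equal number. In the narrowest class, 316 to 2440 bp wide, PCGF2 covered a median of 73.1% (69.1 to 77.4), and in class 5, 4336 to 4971 bp, 50.2% (48.4 to 52.6). The share was still 55.8% (54.3 to 58.7) in class 9, 7734 to 10651 bp, and reached 79.4% (77.4 to 80.6) in the widest class, from 10659 bp. These shares come from the overlap that selected the domains, so the differences between classes are a description. In the narrowest of 10 equal classes of the whole SUZ12 list, 171 to 741 bp wide, only 2.42% of peaks were shared domains. The narrow end thus holds the few narrow SUZ12 peaks that PCGF2 met. With 4 groups of equal number instead, the medians were 59.6%, 50.9%, 52.9% and 63.6% from narrow to wide, so the widest group exceeded the narrowest by 4.05 percentage points (0.87 to 7.22), and did so on 13 of 19 autosomes. It was 1.90 points (-1.12 to 4.91) with PCGF2 peaks of 1000 bp or more and 2.75 points (-0.51 to 6.02) in domains with exactly 1 PCGF2 peak, both with intervals that include no difference. The difference turned to -6.66 points when every PCGF2 peak was widened by 250 bp a side, a step that adds proportionally more to narrow domains. Width is also the denominator of the share, and the Spearman correlation between them over the 3569 domains was 0.05.

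**Figure D1:**
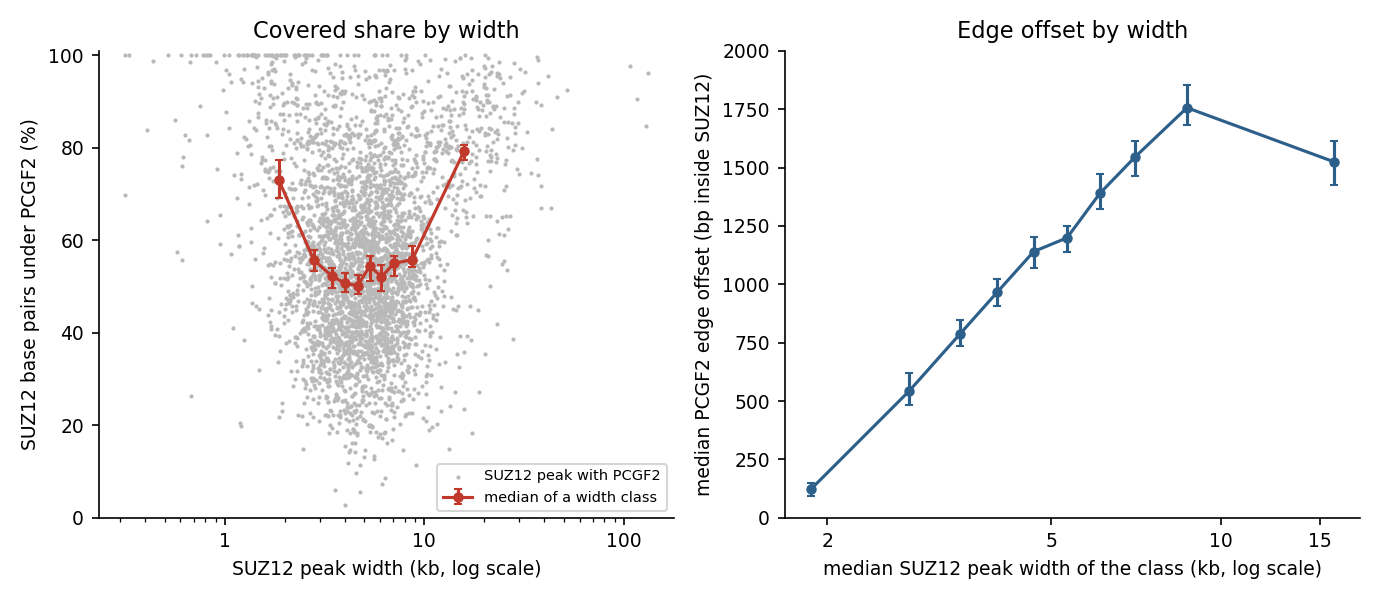
Left, SUZ12 base pairs under PCGF2 (%) against SUZ12 peak width (kb, log scale), with a grey point for each of 3569 domains and red points for the median of each of 10 width classes. Right, the median offset of the PCGF2 edge inside the SUZ12 edge (bp) for the same classes, against their median width (kb, log scale). Bars are 95% order-statistic intervals. The share is 73.1% in the narrowest class, from 50.2% to 55.8% in the middle and 79.4% in the widest, while the offset climbs from 122 to 1756 bp and is 1525 bp in the widest class.

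In base pairs rather than shares, the uncovered margin grew with width and then levelled off. The median offset was 122 bp in the narrowest class, 1140 bp in class 5 and 1756 bp (1682 to 1852) in class 9. In the widest class it was 1525 bp (1426 to 1613), and the covered length there had a median of 12358 bp against 4795 bp in class 9. The wide domains thus added covered length without adding margin. PCGF2 passed the SUZ12 edge at 31.7% of edges in the narrowest class and at 3.36% to 13.6% of edges in the others.

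At a fixed distance from the edge, the share of edges with PCGF2 differed between the width groups. At 1000 bp inside the SUZ12 edge, PCGF2 was present at 76.7% of edges in the narrowest of the 4 width groups, 49.0% in group 2, 32.8% in group 3 and 27.4% in the widest. At 2000 bp inside, it was present at 64.1% of edges in the widest group and 79.8% in group 3. At 500 bp outside the edge it was present at 6.10% of edges in the narrowest group and 0.785% to 1.74% in the others. Median widths were 2625 bp in the narrowest group and 9518 bp in the widest, so 1000 bp inside is nearer the middle of a narrow domain. A block close to the centre gives the same order, and the 2 cannot be told apart here. Edges were followed only to the domain's middle, which left 1360 of 1786 edges of the narrowest group at 1000 bp.

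**Figure D2:**
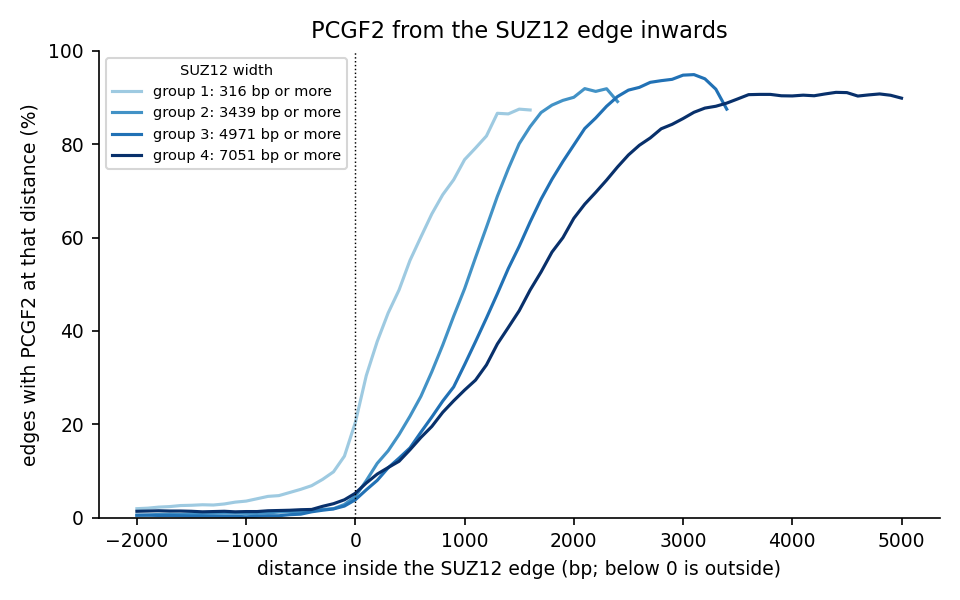
Percentage of SUZ12 edges with PCGF2 at each distance from the edge (bp, positive inwards, both edges of each domain, up to the domain's middle), for 4 equal groups of domains by SUZ12 width. Distances with fewer than 40 edges are not drawn. At 1000 bp inside, the curves stand at 76.7%, 49.0%, 32.8% and 27.4% from the narrowest to the widest group.

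Several PCGF2 peaks in 1 domain were a feature of wide domains. The 87 such domains (2.44%, 1.98 to 3.00) had a median width of 17512 bp (12606 to 21661), against 4875 bp (4781 to 5008) for domains with 1 PCGF2 peak. Of these, 84 were in the widest of the 4 width groups and the remaining 3 in the group next to it, and 62 of the 356 domains of the widest of the 10 classes (17.4%) were of this kind. A wider domain has more room for several peaks, and the part of width in this was not tested. Their 105 gaps between PCGF2 peaks had a median length of 2398 bp (2061 to 3181). Only 7 gaps held a TSS. The CpG ratio in the 103 gaps of at least 200 bp had a median of 0.165 (0.151 to 0.180), against 0.493 (0.458 to 0.524) in the covered part of the same domains. RING1B, which with its paralogue RING1A provides the catalytic subunit of PRC1, covered 89.4% of the gap base pairs, and 88 gaps lay wholly under RING1B.

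The widest domains held clusters of developmental genes and were mostly filled by PCGF2. The Hoxb domain (chr11:96248509-96377171, TSSs of Hoxb1 to Hoxb9) was 128663 bp wide and held 5 PCGF2 peaks, the most of any domain, over 84.7% of its length. The domain of Evx2 and Hoxd1 to Hoxd13 (chr2:74651963-74767858) held 3 PCGF2 peaks over 90.6% of 115896 bp. The Hoxc domain with Hoxc6 to Hoxc13 and the non-coding Hotair (chr15:102906921-103013824) was 97.7% covered by 2 peaks over 106904 bp. Hoxb13, at the posterior end of its cluster, lay in a domain of its own (chr11:96165808-96209011) with 2 PCGF2 peaks over 67.0% of 43204 bp, the lowest share among those 4 Hox domains.

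The other wide domains described here each held the TSSs of 1 or 2 protein-coding genes. Nr2f2 (chr7:70322541-70374317) was 92.6% covered by 1 peak over 51777 bp, and Hand2 (chr8:57309032-57355095) 91.1% by 2 peaks over 46064 bp. The neighbouring genes Zic1 and Zic4, which encode zinc finger factors of the dorsal neural tube, shared a domain (chr9:91348759-91390255) that was 95.6% covered over 41497 bp. The domain of the cell cycle inhibitor genes Cdkn2a and Cdkn2b (chr4:89268767-89312435) was 84.2% covered over 43669 bp. Pou3f3, a POU factor gene of the forebrain (chr1:42681634-42720280), was 71.7% covered over 38647 bp, with an uncovered right flank of 5728 bp. Those 5 domains had 1 or 2 PCGF2 peaks each, fewer than the narrower domains described next.

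Of the other domains with the most PCGF2 peaks, the one with 4 held the Pcdha genes of clustered protocadherins, which are neuronal adhesion proteins (chr18:36938586-36964553), and was 53.6% covered over 25968 bp. That domain contained the TSSs of Pcdha2 to Pcdha5, and its CpG ratio was 0.641 in the covered part and 0.236 in the rest. Nr2f1, the paralogue of Nr2f2 (chr13:78161503-78198486), had 3 PCGF2 peaks over 74.1% of 36984 bp, and the last of them ran 14812 bp past the right edge. Hoxc4 (chr15:103014855-103043432) had 3 over 83.2% of 28578 bp, the first of which was shared with the neighbouring Hoxc domain.

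A small number of PCGF2 peaks joined SUZ12 peaks that the SUZ12 list kept apart. While 3603 PCGF2 peaks met 1 SUZ12 peak, 34 met 2 and 1 met 3, and together these 35 peaks joined 71 SUZ12 peaks, which are therefore not independent of each other. The widest was the Hoxc peak of 75614 bp (chr15:102947050-103022663), 98.6% of which was under SUZ12. It spanned the gap between 2 SUZ12 peaks and so passed the edge of the Hoxc4 peak by 67805 bp. In the same way a PCGF2 peak of 65663 bp over Evx2 and Hoxd genes (chr2:74650912-74716574) joined 2 SUZ12 peaks and passed one of them by 65398 bp. The peak at Zfhx3, a zinc finger homeobox gene (chr8:108694735-108716583), joined 2 SUZ12 peaks and was 88.2% under SUZ12. At Onecut3, a homeobox gene, the peak (chr10:80486983-80506393) passed the smaller of its 2 SUZ12 peaks by 18514 bp. The 3 farthest overhangs were thus places where PCGF2 ran on into a second SUZ12 peak rather than out of SUZ12 sites.

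Among the 1770 domains of at least 5000 bp, the covered share ran from 7.36% to 100%. At the low end were a domain with its midpoint in an exon of Ccdc88b (chr19:6844232-6850401, 7.36%), an intergenic domain 51921 bp from the nearest TSS, that of Dlx4 (chr11:95197722-95204071, 8.66%), the domain of Gfy and the neuropeptide gene Pth2 (chr7:45174650-45183713, 11.4%), that of the metalloproteinase gene Mmp28 (chr11:83460041-83465635, 12.7%) and one in an intron of the spectrin gene Sptbn4 (chr7:27403423-27409019, 13.3%). In these 5 domains PCGF2 covered 454 to 1031 bp of 5595 to 9064 bp, and in each the CpG ratio of the covered part exceeded that of the remainder, for example 0.743 against 0.156 in the domain nearest Dlx4. RING1B covered 35.8% to 100% of them.

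At the high end, PCGF2 passed both edges. The widest fully covered domain was that of Tbx3, a T-box gene (chr5:119656323-119676484, 20162 bp), followed by Eomes, another T-box gene (chr9:118473866-118489818, 15953 bp), and Nr4a2, a nuclear receptor gene (chr2:57107580-57117636, 10057 bp). The retinal homeobox gene Rax (chr18:65933775-65941886, 8112 bp) and the RNA-binding protein gene Igf2bp3 (chr6:49212688-49220330, 7643 bp) completed the set. The overhang of PCGF2 in these domains was between 44 bp, on the right of Eomes, and 6449 bp, on the left of Nr4a2. Of all 71 fully covered domains, 10 were of 5000 bp or more and 53 overlapped a promoter. Cbln2, a synaptic organiser gene that the study uses as an example (chr18:86708127-86715899), was nearer the middle, with 65.2% of 7773 bp covered and offsets of 1605 and 1102 bp.

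A promoter was defined as 2500 bp on either side of a curated RefSeq TSS. Of all SUZ12 peaks, 77.1% overlapped a promoter, and of the shared domains 3037 (85.1%, 83.9 to 86.2) did so, against 2694 of 3869 SUZ12 peaks without PCGF2 (69.6%, 68.2 to 71.1). The difference was 15.5 percentage points (13.6 to 17.3). The shared domains were also wider, with a median of 4971 bp against 1402 bp, and a wider peak is more likely to reach a promoter. A TSS lay inside 80.2% of the shared domains and 40.5% of the others.

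PCGF2 covered slightly more of promoter domains than of other domains. The median covered share was 57.1% (56.2 to 58.0) at promoters and 50.8% (48.7 to 53.8) at the 532 domains elsewhere, a difference of 6.26 points (3.10 to 9.42) that was in the same direction on 14 of 19 autosomes. With a promoter domain defined by a TSS inside the SUZ12 peak, the difference was 3.53 points (0.69 to 6.37). Promoter domains were wider too, with medians of 5121 and 4181 bp. Within the 4 width groups the difference was -4.63 points in the narrowest and 7.78, 6.29 and 8.25 points in the wider ones. In the narrowest group the medians were therefore in the other order, 59.1% at 701 promoter domains and 63.7% at 192 others. Offsets were close, with medians of 1057 bp (1027 to 1085) at promoters and 954 bp (853 to 1026) elsewhere.

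The number of genes in a domain went along with its cover. The median share was 53.4% (50.9 to 56.1) in 706 domains with no TSS inside, 55.9% (55.0 to 56.7) in 2464 domains with the TSSs of 1 gene, 64.8% (61.3 to 67.1) in 358 with those of 2 genes and 83.5% (79.8 to 89.9) in 41 with 3 or more. Median widths were 3750, 5049, 6762 and 25818 bp in the same order, so gene number and width cannot be told apart from these shares.

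Away from promoters, domains lay mainly between genes. The midpoint was intergenic in 302 of the 532, in an intron in 131 and in an exon in 99, and the median distance to the nearest TSS was 21834 bp. The widest were at chr6:51168101-51187528 (19428 bp, 88.3% covered, intergenic), chr7:143433555-143452291 (18737 bp, 27.3% covered by 2 peaks, 8759 bp from the TSS of the cell cycle inhibitor gene Cdkn1c) and chr7:79530163-79548642 (18480 bp, 74.7% covered, intergenic). A domain in an intron of Lmx1b, a LIM homeobox gene, was 17394 bp wide (chr2:33569319-33586712) and 18.4% covered. A domain in an intron of Bcor, which encodes a co-repressor found in a PRC1 form without PCGF2, was 17291 bp wide (chrX:12124165-12141455) and 96.9% covered. Among the 5 widest the share thus ran from 18.4% to 96.9% at similar widths.

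The rule did not use gene orientation, and the uncovered flanks were not quite symmetrical with respect to it. In the 2464 domains holding the TSSs of exactly 1 gene, on 1 strand, the SUZ12-only flank on the gene body side was the longer in 1406 of 2461 with unequal flanks (57.1%, 55.2 to 59.1). The median flank was 999 bp (963 to 1036) upstream and 1172 bp (1128 to 1201) on the gene body side. The share exceeded 50% on 18 of 19 autosomes, with a range of 49.3% to 64.7%. Both peaks reached farther into the gene than upstream of it. From the most upstream TSS, SUZ12 extended a median of 1996 bp upstream and 3004 bp downstream, and PCGF2 894 bp upstream and 1763 bp downstream. PCGF2 reached farther downstream than upstream in 81.0% of these domains (79.5 to 82.5) and SUZ12 in 76.9% (75.2 to 78.5). Where a gene has several TSSs, measuring from the most upstream one shortens the upstream reach and lengthens the downstream reach.

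**Figure D3:**
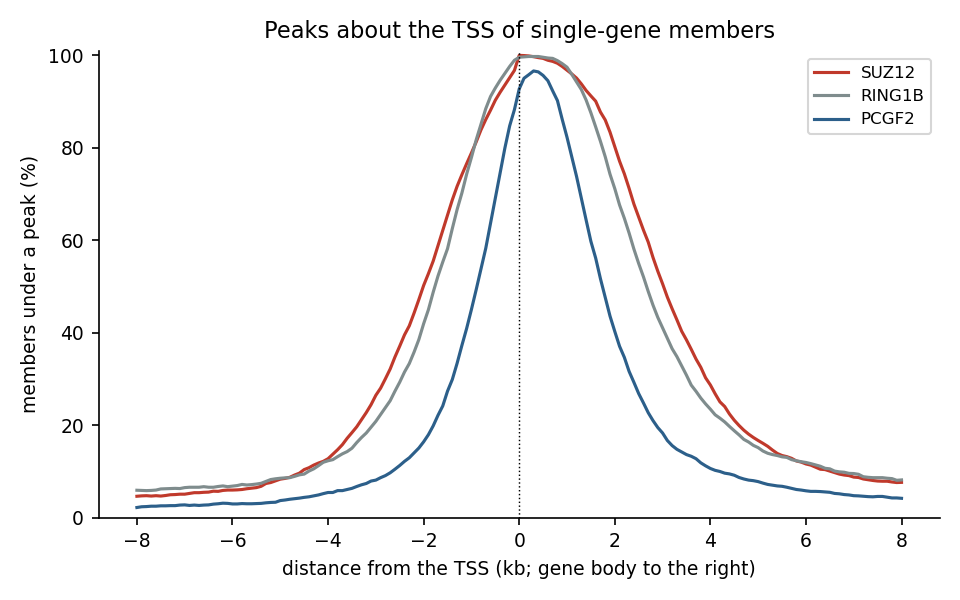
Percentage of the 2464 single-gene domains under a SUZ12, RING1B or PCGF2 peak at each distance (kb) from the most upstream TSS inside the domain, with the gene body to the right. At 1000 bp upstream, SUZ12 is at 78.9%, RING1B at 77.9% and PCGF2 at 45.0% of domains, and at 1000 bp downstream they are at 96.8%, 97.4% and 82.3%.

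TSSs lay in the part that PCGF2 covered. Of 3939 distinct TSS positions inside shared domains, 3637 (92.3%, 91.5 to 93.1) were under PCGF2, whereas PCGF2 covered 63.3% of the base pairs of the domains that hold a TSS. Every TSS was covered in 2597 of 2863 such domains (90.7%, 89.6 to 91.7), and in 166 (5.80%, 5.00 to 6.71) none was. The midpoint of the SUZ12 peak was under PCGF2 at a like rate, in 92.2% of all shared domains. How far the position of TSSs within the domain plays a part in their cover was not tested. Epha10, an ephrin receptor gene, was an example without PCGF2 at the TSS, in a domain of 7836 bp that was 14.6% covered (chr4:124880939-124888774).

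CpG content separated the covered from the uncovered part almost everywhere. In 3399 domains with at least 200 bp in each part, the ratio of observed to expected CpGs was higher under PCGF2 in 3338 (98.2%, 97.7 to 98.6). The median was 0.598 (0.593 to 0.604) in the covered part and 0.220 (0.216 to 0.223) in the SUZ12-only part, and the median difference within a domain was 0.368. CpGs per 100 bp had medians of 4.70 and 1.20, and GC content 56.4% and 47.0%. Repeats, the lower-case bases of the reference, took up a median of 9.50% of the covered and 15.7% of the SUZ12-only part. The share of domains with the higher ratio under PCGF2 was 98.2% at promoters and 98.0% elsewhere, and lay between 94.9% and 100% on single autosomes. With 500 bp on each side of every TSS left out of both parts it was 95.2%. It was lowest in the narrowest of the 10 width classes, at 90.3%. Whether CpG content bears on where PCGF2 binds was not tested.

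The SUZ12-only part came near the surrounding DNA in this respect. In 3219 domains with no other SUZ12 peak within 1000 bp, the CpG ratio had a median of 0.602 under PCGF2, 0.220 (0.216 to 0.223) in the SUZ12-only part and 0.204 (0.200 to 0.207) in the 1000 bp beyond each SUZ12 edge. The SUZ12-only part exceeded the outside in 59.7% of these domains (58.0 to 61.4), by a median of 0.02.

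The change in CpG density was gradual and lay mostly inside the PCGF2 edge. It was followed in 813 domains with 1 PCGF2 peak of at least 2000 bp and offsets of at least 1000 bp on both sides. CpGs per 100 bp were 1.08 at 950 bp outside the PCGF2 edge, 1.39 at 50 bp outside, 1.52 at 50 bp inside, 2.78 at 550 bp inside and 4.73 at 950 bp inside. PCGF2 peaks in these domains, which were chosen for a SUZ12-only flank on both sides, thus extended past the CpG-dense core before they ended.

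**Figure D4:**
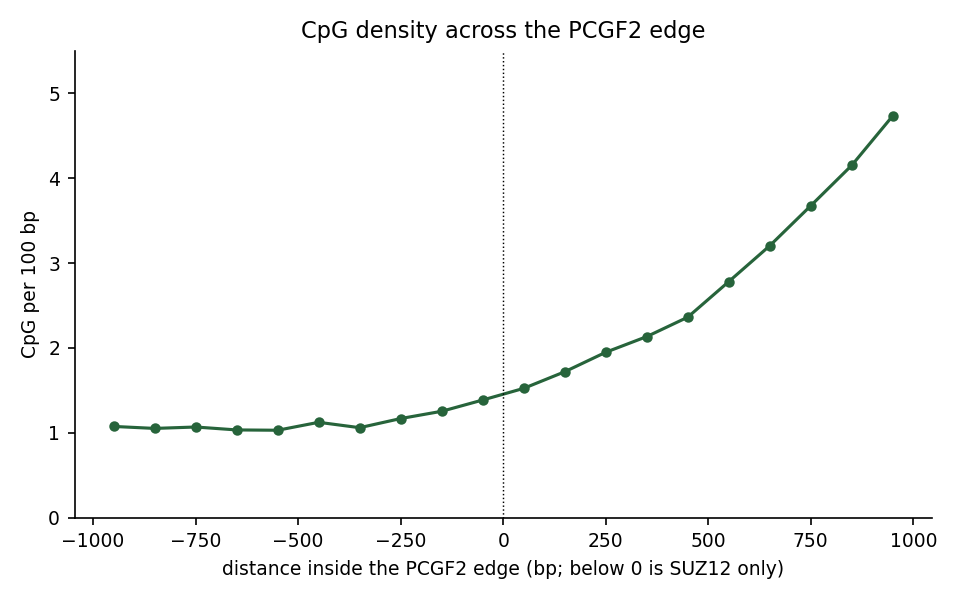
CpG dinucleotides per 100 bp in windows of 100 bp about the PCGF2 edge (bp, positive inside PCGF2, negative in the SUZ12-only flank), over 1626 edges of 813 domains. The density is 1.08 at 950 bp outside, 1.52 just inside the edge and 4.73 at 950 bp inside.

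Domains were also cut into 4 groups of equal number by covered share. Those of the lowest group, up to 43.3%, had a median CpG ratio of 0.401 over their whole length, against 0.453, 0.498 and 0.532 in the next groups. Their PCGF2-covered part had a ratio of 0.615, the highest of the 4 groups, and that of the group with the highest shares 0.560. In the SUZ12-only part the 4 medians lay between 0.213 and 0.225. Median widths increased from 4739 bp in the lowest to 5481 bp in the highest group.

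RING1B filled the part of the domain that PCGF2 covered and much of the rest. RING1B peaks overlapped 96.2% of all SUZ12 peaks, 3566 of the 3569 shared domains (99.9%) and 92.8% of SUZ12 peaks without PCGF2. They covered 99.8% of the base pairs under PCGF2 and 69.2% of the 8.55 Mb under SUZ12 only, and 1 standard deviation over autosomes on either side of that value spans 65.5% to 72.9%. The median offset of the RING1B edge inside the SUZ12 edge was 117 bp (102 to 129), and that of the PCGF2 edge inside the RING1B edge 778 bp (759 to 800). PCGF2 lay inside RING1B at 96.9% of edges, RING1B inside SUZ12 at 61.3%, and the full nesting of PCGF2 in RING1B in SUZ12 at both edges was found in 1398 of 3566 domains (39.2%). The RING1B list was built by another rule, with a filter on loss after OHT, so these offsets too cannot be told apart from the rules.

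Domains of gene families that encode developmental transcription factors had higher median covered shares than those of all genes, and were also wider. A gene was counted where its promoter overlapped a shared domain. Over all 26180 annotated genes, 6487 had SUZ12 at a promoter and 3588 of these (55.3%) had a shared domain, with a median share of 57.0% over 2965 distinct domains. All 39 Hox genes were in shared domains, 6 in number, with a median share of 87.7%. For T-box genes it was 12 of 13 genes with SUZ12 and 90.4%, for Gata 5 of 5 and 84.2%, for Nkx 14 of 14 and 83.1%, for Forkhead 27 of 32 and 82.4%, and for Pax 8 of 9 and 81.3%. LIM homeobox genes, at 12 of 12 and 81.1%, Irx, Dlx and sine oculis homeobox genes, at 17 of 18 and 80.6%, proneural bHLH genes, at 15 of 16 and 80.4%, and Sox genes, at 15 of 15 and 79.6%, were similar.

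Families of signalling and neuronal genes lay closer to the level of all genes. The median share was 61.5% for Wnt ligands (17 of 17 genes with SUZ12 in shared domains), 58.8% for Fgf ligands (13 of 17), 57.3% for TGF-beta superfamily ligands (16 of 19), 65.1% for axon guidance genes (39 of 50) and 56.1% for glutamate and GABA receptors (25 of 33). The transcription factor domains were mostly wider. Outside Hox, their medians over genes ran from 9004 bp for Sox to 25680 bp for Pax. Those of the signalling and neuronal lists ran from 5361 to 10698 bp, and the Wnt median of 10698 bp exceeded that of Sox. Set against the median of domains in the same one of the 10 width classes, 5 of 6 Hox, 18 of 26 Forkhead, 9 of 15 Sox, 5 of 8 Pax, 4 of 5 Gata, 9 of 12 T-box, 7 of 12 LIM homeobox, 10 of 14 Nkx, 11 of 15 Irx, Dlx and sine oculis homeobox and 11 of 15 proneural bHLH domains were above it. For the other lists it was 6 of 17 Wnt, 6 of 13 Fgf, 8 of 16 TGF-beta superfamily, 31 of 39 axon guidance and 14 of 24 glutamate and GABA receptor domains, and for all genes 1517 of 2965. Width is matched only loosely in the widest class, which starts at 10659 bp and has no upper limit. That class held from 6 of 15 Sox to 12 of 12 LIM homeobox and 6 of 6 Hox domains. It held 9 of 17 Wnt, 1 of 39 axon guidance and 330 of the 2965 domains of all genes. The part of width in these counts was therefore not removed.

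**Figure D5:**
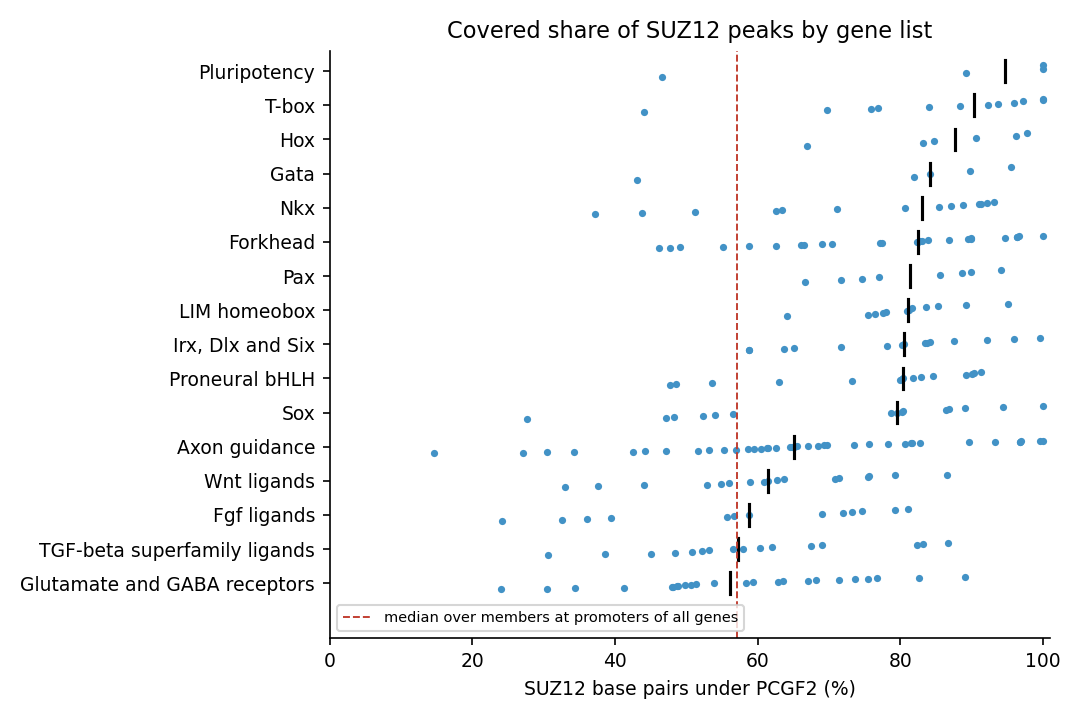
SUZ12 base pairs under PCGF2 (%) for each distinct shared domain at the promoter of a listed gene (blue points), with the median of each list (black bar) and the median of 57.0% over the domains of all genes (dashed line). Medians of the transcription factor lists lie between 79.6% and 90.4%, and those of the signalling and neuronal lists between 56.1% and 65.1%. The pluripotency list, with only 4 domains, has the highest median, 94.6%.

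Within each family the spread was wide. Among Forkhead genes, Foxo3 lay in a domain that was 100% covered and Foxe3 in one that was 46.1% covered. Sox4 was at 100% and Sox13 at 27.7%. Among T-box genes, Tbx3 was at 100% and Tbx21, the factor of T helper 1 cells, at 44.1%. Gata6 was at 95.6% and Gata5 at 43.1%, and Nkx2-5, a heart factor, at 93.1%. The domain of Dlx6 was 99.6% covered over 36617 bp, while Six5 was at 58.8%. The range was narrower for Pax genes, from 66.6% at Pax8 to 94.1% at Pax3, for LIM homeobox genes, from 64.1% at Lhx9 to 95.05% at Isl1, and for Hox genes, from 67.0% at Hoxb13 to 97.7% at Hoxc9. Neurog3 was at 91.4% and Ascl2 at 47.7% of the proneural list.

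Ligand and receptor genes had their own extremes. Wnt10b was at 86.6% and Wnt7a at 32.9%. Fgf11 was at 81.1% and Fgf14 at 24.2%, and Bmp7 at 86.7% against 30.6% for Bmp8b. Among axon guidance genes, Epha4 was at 100% and Epha10 at 14.6%. The GABA receptor gene Gabrb2 was at 89.1% and the NMDA receptor gene Grin2c at 24.0%.

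A list of 20 pluripotency genes, most of them known to be active in ESCs, was also looked up. SUZ12 was at the promoter of 8 of them (40%, against 24.8% of all annotated genes), and 4 were in a shared domain, with a median share of 94.6%. As a check of the labelled cell type, peak lists of this kind say little. The core factors Pou5f1, Nanog and Sox2 had no SUZ12 peak at their promoters. The 4 with a shared domain were Tbx3 (100% covered), Klf4 (100% of 1727 bp), Prdm14 (89.2% of 5729 bp) and Esrrb (46.6% of 7972 bp).

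At the threshold of the rule, overlaps were small on one side and distances short on the other. The domains just inside it shared 114 bp (chr15:102694265-102698260), 179 bp (chr10:108330826-108331506) and 216 bp (chr5:147223931-147227489) with PCGF2, and all 3 had an intergenic midpoint. The one on chromosome 10 lay 683 bp from the TSS of Pawr and so overlapped a promoter. The SUZ12 peaks just outside it lay 22 bp (chr1:74777108-74779042, in an intron of Wnt6), 114 bp (chr4:155892374-155893065, in an intron of Acap3) and 320 bp (chr12:118856771-118857223, intergenic, nearest to Sp8) from a PCGF2 peak. The share of SUZ12 peaks that were shared domains followed their width, from 2.42% in the narrowest of 10 equal classes of the whole SUZ12 list to 53.5% in class 6 and 99.2% in the widest.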

How the data were processed

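Calibrated ChIP-seq reads from ESCs with HEK293T spike-in were aligned by the authors with Bowtie 2 to mm10 together with hg19, duplicates were removed, and broad peaks were called with MACS2 against matched Input. The deposited values are peak start and end coordinates in bp, with no score of height. SUZ12 peaks were called on merged replicates of each untreated line and kept if found in both, and PCGF2 peaks in each replicate of untreated PRC1CPM and kept if found in all. RING1B peaks had a further filter on loss after OHT.

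Coordinates were matched to GRCm38.p6, where every peak fitted within its chromosome and no list held peaks that overlap each other. Overlap, cover and offsets were computed with Python 3.11.15 and NumPy 2.4.6 and tested on simulated data. TSSs were those of curated RefSeq transcripts of 26180 genes. Lists hold no replicates or depth, so no hypothesis test was run.

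Domains named were the 10 widest, those with the most PCGF2 peaks, the lowest and highest covered shares from 5000 bp, the extremes of overhang, joining and overlap, the widest outside promoters, the extremes of each gene list, and Cbln2. Some items under this rule are not reported here. Domains and gene lists were chosen with earlier results of these data known. The 104 alternatives changed overlap, merging, peak width, chromosomes, promoter definition and CpG measure. The other antibodies and OHT-treated samples were not analysed here.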

Additional observations from a re-analysis of the deposited data

How the results depend on the processing

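Of 104 alternative values for 11 results, 93 stayed within the 95% interval of the reported value (1 standard deviation over autosomes for RING1B cover), 10 moved beyond it and 1 reversed. Widening PCGF2 peaks by 250 bp a side moved the median covered share from 56.4% to 66.7%, the PCGF2 peaks wholly inside a SUZ12 peak from 86.3% to 70.5%, the median offset from 1042 to 792 bp, the domains with more CpG under PCGF2 from 98.2% to 99.1%, the TSSs under PCGF2 from 92.3% to 96.1% and RING1B cover of the SUZ12-only part from 69.2% to 63.3%. It turned the difference between the widest and narrowest of 4 width groups from 4.05 to -6.66 points. The interval of that difference included 0 with PCGF2 peaks of 1000 bp or more (1.90 points) and in domains with exactly 1 PCGF2 peak (2.75 points). A TSS inside the SUZ12 peak as the promoter definition gave a promoter difference in covered share of 3.53 points, where the reported one is 6.26. PCGF2 peaks of 1000 bp or more gave a median covered share of 57.2% and 93.3% of TSSs under PCGF2. Leaving out 500 bp on each side of every TSS gave 95.2% for the CpG order, and a promoter of 1000 bp on each side gave a difference of 18.2 points in promoter share, where 2500 bp gave 15.5. No paired analysis was possible because no peak in these files belongs to a single replicate, and for the same reason no replicate could be left out. The lists carry no depth, so a stretch without PCGF2 means no peak was called there, not that the protein was absent. Domains joined by a PCGF2 peak are not independent, whereas the intervals treat all domains as independent. Intervals over edges or TSSs also treat the 2 edges of a domain, and several TSSs within it, as independent.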

Other observations

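Chromosome X stood apart from the autosomes, a pattern chosen after its values were seen. Of its 131 SUZ12 peaks, 86 were shared domains (65.6%, 57.2 to 73.2), against 47.7% (46.5 to 48.8) on the autosomes and 43.2% to 54.5% on single autosomes. The median covered share was 74.0% (69.1 to 79.2) on X and 56.1% (55.4 to 56.8) on the autosomes, where single chromosomes ranged from 48.7% to 61.8%. The covered length was alike, with medians of 2546 and 2550 bp, whereas the shared SUZ12 domains were narrower on X, at 3900 bp (3310 to 4443) against 5023 bp (4878 to 5123). Over all SUZ12 peaks, with or without PCGF2, the order was the other way, with medians of 2905 bp (2514 to 3262) on X and 2661 bp (2585 to 2747) on the autosomes. The median offset was 477 bp (358 to 622) on X and 1061 bp (1034 to 1088) on the autosomes. Promoters were a similar part of both, 82.6% and 85.2%. E14 is a male line and so carries a single X, and the part this plays in the difference was not tested.

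Of 1818 SUZ12 peaks of at least 5000 bp, 48 met no PCGF2 peak. These were also singled out after their values were seen. The widest were at chr9:108104000-108117505 (13506 bp, with its midpoint in an exon of Bsn, which encodes a presynaptic scaffold protein), chr1:75477590-75489287 (11698 bp, with the TSSs of Chpf and Tmem198) and chr17:46452743-46462469 (9727 bp, in an intron of the tau kinase gene Ttbk1). RING1B covered 73.0%, 57.6% and 76.8% of them. Over the 48, RING1B cover had a median of 85.4% (73.3 to 92.1), against 90.5% (89.9 to 91.2) for shared domains of the same minimum width. Their CpG ratio had a median of 0.402 (0.359 to 0.436), against 0.441 (0.436 to 0.445), while their GC content was higher, 53.9% (53.3 to 55.0) against 51.4% (51.1 to 51.6), and CpGs per 100 bp were close, 2.89 and 2.88. A promoter was overlapped by 77.1% (63.5 to 86.7) of the 48 and by 88.6% (87.1 to 90.04) of the shared domains.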
